A study of Mus musculus with 2 samples.

Results

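Hand1, Hand2, the 4 Mef2 genes, Srf and Smarcd3 were measured in right atria of Shox2-/- and wildtype mouse embryos, and these 8 genes were taken by symbol from a table of 21225 genes. Each had 1 row, matched by its Entrez gene number, so that none was left out by a filter. The data are 1 array for the Shox2-/- genotype and 1 array for wildtype, both of embryos of the CD-1 outbred line at E11.5. Each array was hybridized with RNA pooled from 6 embryos of 2 pregnancies, and the dissected right atria held the sinus venosus myocardium and the venous valves, where Shox2 is normally made. Shox2-/- is a knockout of the whole embryo, not of the heart alone. Since RNA was pooled and each genotype had a single array, the differences below carry neither an error nor a p-value. In a pool of a whole tissue, fewer cells of a type and less RNA per cell cannot be told apart.

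Hand1 and Hand2 are basic helix-loop-helix proteins that bind DNA as dimers with E proteins, and in mice both are needed for heart growth, Hand1 mainly toward the left ventricle and outer curvature and Hand2 mainly toward the right ventricle and outflow tract. The Mef2 proteins and Srf share the MADS domain, with which they bind A/T-rich sites in front of muscle genes as dimers. Srf changes its output with its partners, since myocardin and its relatives draw it to muscle and cytoskeletal genes and the Elk factors draw it to genes that respond at once to growth signals. Smarcd3, also called Baf60c, is a subunit of the BAF chromatin remodelling complex that in the mouse embryo links the complex to cardiac transcription factors. None of the 8 is a marker of the sinus node alone.

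The sequences that Srf and Mef2 proteins read are shown first so that the boxes found near some of their target genes below can be set beside them. In the RefSeq promoter table of GRCm38.p6, which gives 250 bases before and 50 after each gene's start, 7 of the 8 genes had a window, all but Hand1, and Mef2c had 3 windows for its different starts. Srf is known to act on its own gene, and its window held the CArG box 2 times, at −82 and −62 counted from the start. The box is a run of A and T between a pair of C and a pair of G, and 1.63% of all 32851 windows hold it on either strand. Bases −110 to −31 of the Srf window (chr17:46556193-46556272, minus strand) read as follows, with both boxes in capitals.
Srf: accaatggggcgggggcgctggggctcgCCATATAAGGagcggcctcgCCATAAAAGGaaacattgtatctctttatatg
Of the 9 windows, 1 held a MEF2 site, the A/T-rich sequence bound by Mef2 dimers, which 0.557% of all windows hold. It lies across the start of Mef2a (chr7:67372841-67372870, minus strand), with its first base at −2 and the site in capitals.
Mef2a: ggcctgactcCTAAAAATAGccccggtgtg

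Windows were also read for AATT, the palindrome in the probes that the study used for binding of SHOX2 protein to DNA. It occurred in 3 of the 9 windows, 1 of Hand2 and 2 of Mef2c, and 50.4% of all windows hold it, so that its presence does not set these genes apart. The E-box CANNTG, the type of sequence bound by Hand dimers, was in 5 of the 9 windows, against 72.3% of all. Stretches of the Hand2 window (chr8:57320793-57320873, plus strand, −190 to −110) and of the first Mef2c window (chr13:83503824-83503963, plus strand, −210 to −71) show the AATT letters in capitals, 2 and 4 times. Both motifs read the same on either strand, and a match in these letters is a description only.
Hand2: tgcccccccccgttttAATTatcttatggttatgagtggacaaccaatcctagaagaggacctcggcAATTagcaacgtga
Mef2c: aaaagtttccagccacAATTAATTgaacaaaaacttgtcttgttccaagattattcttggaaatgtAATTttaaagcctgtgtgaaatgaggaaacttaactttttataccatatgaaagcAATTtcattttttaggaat

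No member was past a size threshold of the study. The thresholds are a log2 difference, Shox2-/- minus wildtype, of at least 0.35 or of −0.4 or less, and over all 21225 genes 1.13% reached the upper and 1.78% the lower one. The study also required a small P for a gene to be called, which 1 value per gene and array cannot give. These shares rest on size alone and are not the calls of the study. With 8 genes, a count of 0 is close to those shares and says little about the group. The median difference of the 8 was 0.077 and that of all genes 0.021. Of the members 5 had a difference above 0 and 3 below it, and 54.9% of all genes had one above 0. The spread among members ran from −0.12 for Mef2a to 0.29 for Hand1.

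The genotype check came from Shox2 itself, at 7.48 on the Shox2-/- array and 8.43 on the wildtype array, a difference of −0.95. Array medians over all genes were 7.50 on the Shox2-/- array and 7.49 on the wildtype array. As a measure of the signal that a silent gene can give, 1294 genes of odorant and pheromone receptors were used, of which 95% lay below 6.97 on the Shox2-/- array and below 6.78 on the wildtype array, called the receptor level here. All 8 members lay above it on both arrays. So did Shox2, at 7.48 on the Shox2-/- array, where the gene is knocked out. The source of this remaining signal was not tested, and a value above the receptor level is not by itself taken as expression. Receptor genes themselves were shifted, with a median difference of 0.12, and the median difference changed with level. Over 10 bins of genes ordered by level it was 0.068 in the lowest, highest in the third at 0.12, −0.089 in the ninth (mean levels 8.85 to 9.48) and −0.083 in the tenth. Levels are log2 array values, and since probes of different genes differ in brightness, levels are compared between arrays for 1 gene and not between genes.

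**Figure D1:**
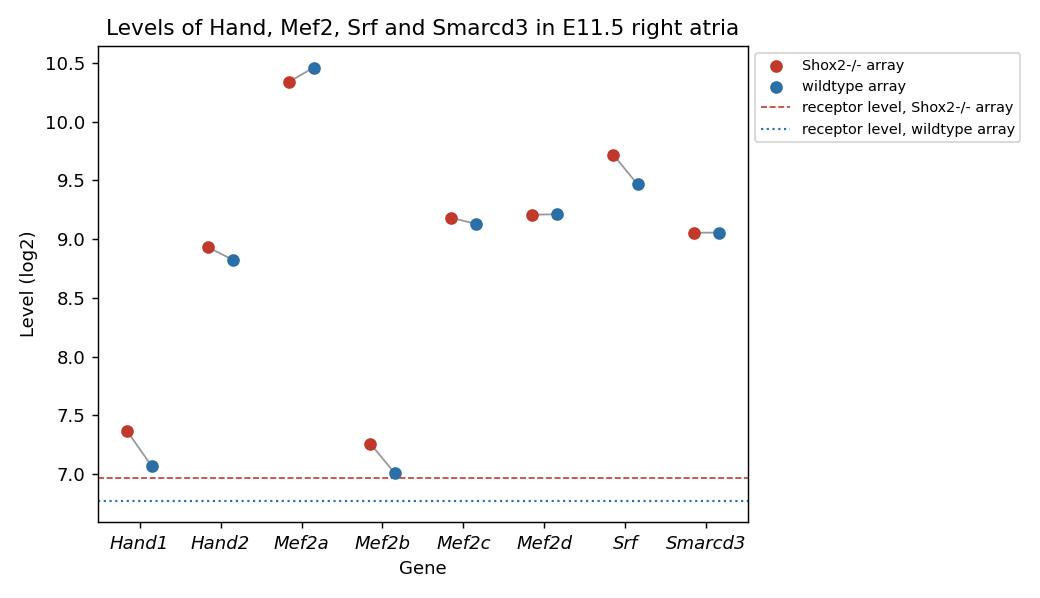
Log2 level (vertical axis) of each of the 8 genes on the Shox2-/- array (red, left point of each pair) and the wildtype array (blue, right point), 1 array each and no error bars. Lines give the receptor level of each array, 6.97 on the Shox2-/- array (dashed) and 6.78 on the wildtype array (dotted), and Hand1 and Mef2b are the 2 genes that lie close above them.

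Hand1 had the largest difference of the 8. Its level was 7.36 on the Shox2-/- array and 7.07 on the wildtype array. The Shox2-/- value was thus higher by 0.29, or 1.23-fold, which is 0.056 short of the upper threshold. Over all genes, 7.84% had a difference at least as far from 0. Hand1 also lay only 0.39 above the receptor level on the Shox2-/- array and 0.29 above it on the wildtype array, and 6.26% of the receptor genes had a difference at least as high. Among the 2123 genes in its level bin, with mean levels from 7.12 to 7.49, the middle 90% of differences ran from −0.28 to 0.29, so that Hand1 sat at the upper edge of what genes of its level showed. How much of the Hand1 signal was background was not tested.

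Hand2, the paralog with the brighter signal, had a level of 8.93 on the Shox2-/- array and 8.83 on the wildtype array. This difference of 0.10, or 1.08-fold, was small beside the table as a whole, in which 55.1% of genes had a difference at least as far from 0. In its own level bin the median was −0.089, and 9.14% of the 2122 genes there were at least as high as Hand2. Both Hand genes therefore had higher values on the Shox2-/- array, in each of the 3 other scalings too, and neither reached the threshold.

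The Mef2 genes did not move as a family. Mef2c, the member whose loss stops heart looping and right ventricle formation in mice, had a level of 9.18 on the Shox2-/- array and 9.13 on the wildtype array, a difference of 0.050. Mef2a, the main Mef2 protein of the mouse heart after birth, had 10.34 on the Shox2-/- array and 10.46 on the wildtype array. Its difference of −0.12, or 0.922-fold, was the lowest of the 8 and close to the median of its level bin, −0.083.

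Mef2d, expressed in many tissues, had 9.208 on the Shox2-/- array and 9.212 on the wildtype array, a difference of −0.0040. Mef2b had 7.26 on the Shox2-/- array and 7.01 on the wildtype array. Its difference of 0.25, or 1.19-fold, came near the background, at 0.29 above the receptor level on the Shox2-/- array and 0.23 above it on the wildtype array. Of the receptor genes 12.6% had a difference at least as high, so that background genes showed such a value often. The gene next to Mef2b in the RefSeq annotation, Borcs8, once named Mef2bnb, stood at 8.67 on the Shox2-/- array and 8.84 on the wildtype array and thus ran the other way by −0.18. It was chosen after its values were seen. Mef2b and Mef2c were higher and Mef2a and Mef2d lower on the Shox2-/- array as deposited, while Mef2d was above 0 once the trend with level was removed (0.081).

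Srf had the largest difference among the 6 members that lay far above the receptor level. Its level was 9.72 on the Shox2-/- array and 9.47 on the wildtype array, which is 2.75 and 2.69 above the receptor level of these arrays. The difference was 0.25, or 1.19-fold. Genes of high level mostly had differences below 0, with a median of −0.083 and a middle 90% from −0.37 to 0.16 in its bin of 2123 genes, and 1.37% of that bin was at least as high as Srf. With the trend of the difference on the level removed, Srf reached 0.34, or 1.26-fold, just below the threshold of 0.35. The difference has no replicate check.

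Smarcd3 had 9.055 on the Shox2-/- array and 9.056 on the wildtype array. The 2 values were nearly equal, with a difference of −0.0010, and 99.5% of all genes had a difference at least as far from 0. It was above 0, at 0.084, once the trend was removed.

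**Figure D2:**
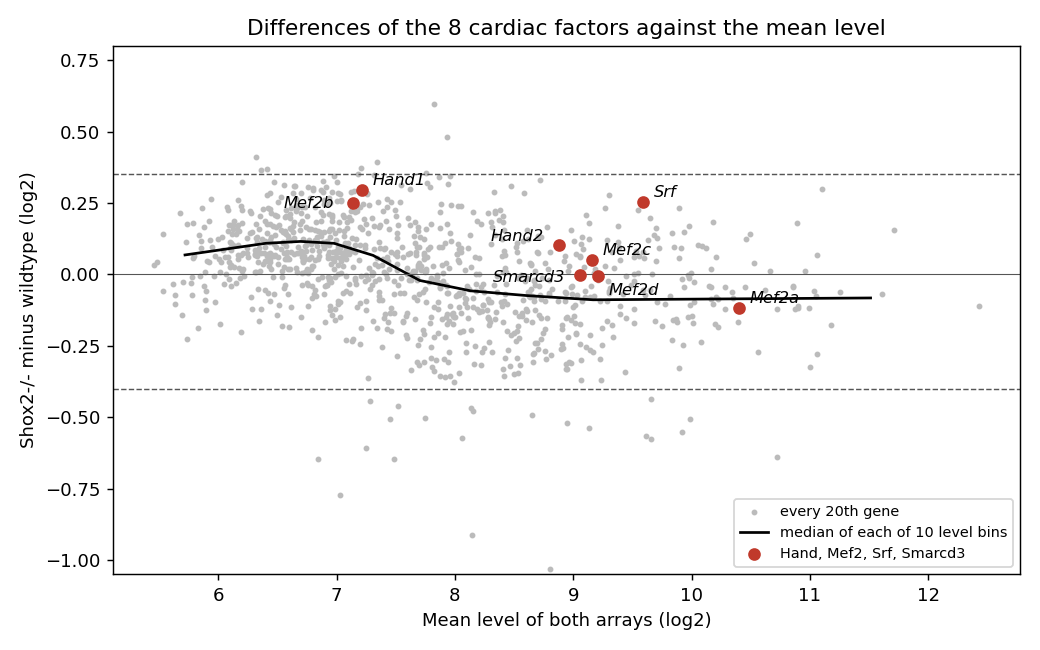
Difference between the Shox2-/- and wildtype arrays (log2, vertical axis) against the mean level of both arrays (log2, horizontal axis) for every 20th gene of the table (grey) and the 8 named genes (red). Dashed lines are the thresholds of 0.35 and −0.4 and the black line joins the medians of 10 level bins, below which lies Mef2a alone of the 8, while Srf lies farthest above it.

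Set against this trend, 7 of the 8 members lay above 0, as 50.6% of all genes did, and Mef2a lay at −0.036. Still no member was past a threshold, and 0.952% of all genes reached the upper and 1.5% the lower one. The medians were 0.15 for the members and 0.0019 for all genes. Quantile normalization of the deposited values once more gave much the same picture, with Srf at 0.34 and Mef2a at −0.027. The direction was kept in every scaling by Hand1, Hand2, Mef2a, Mef2b, Mef2c and Srf, while Mef2d and Smarcd3 changed sign.

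**Figure D3:**
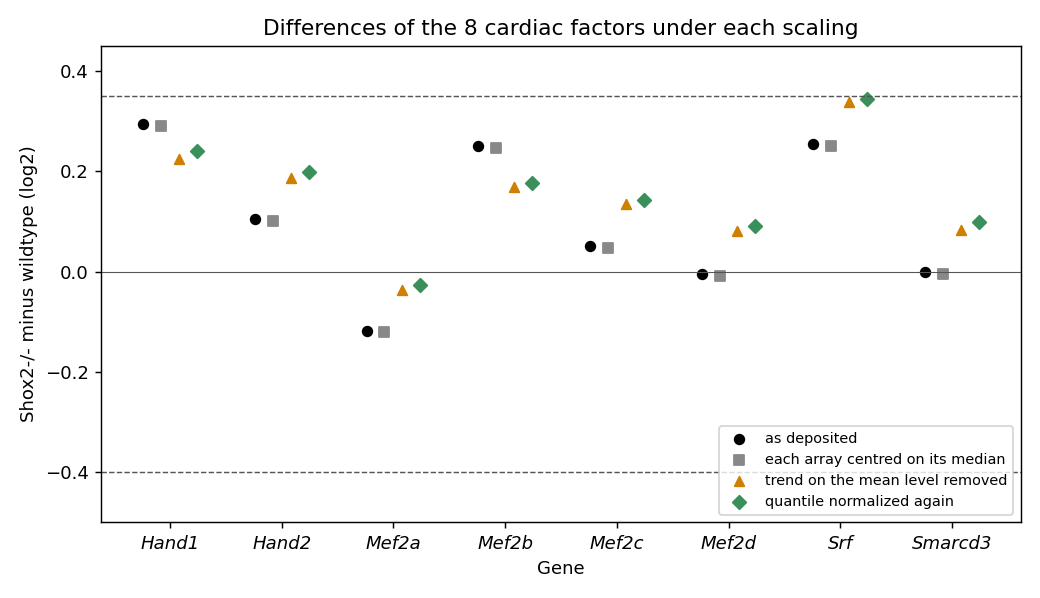
Difference between the Shox2-/- and wildtype arrays (log2, vertical axis) of each of the 8 genes as deposited (circle), with each array centred on its median (square), with the trend on the mean level removed (triangle) and after a further quantile normalization (diamond). Dashed lines are the thresholds of 0.35 and −0.4, which no point passes, and Srf comes nearest at 0.34.

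Hand proteins act with partners, and the partners were measured on the same arrays. The E proteins Tcf3, Tcf4 and Tcf12 form dimers with Hand proteins, and the Id proteins take E proteins away. None of these 7 genes was past a threshold, 3 were higher and 4 lower, and the median was −0.067, which turned to 0.018 with the trend removed. Id1, an inhibitor, had 9.32 on the Shox2-/- array and 9.03 on the wildtype array, a difference of 0.30. With the trend removed Id1 was past the threshold at 0.38. Tcf12 had 10.24 on the Shox2-/- array and 10.41 on the wildtype array, a difference of −0.17. The other 5 genes lay between −0.094 and 0.015.

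In the pharyngeal arches endothelin signals and Dlx factors act upstream of Hand2, and Bmp signals act upstream of Hand1 and Hand2 in several tissues. Of 5 listed genes 4 had a named row, all with a difference above 0 and none past the threshold, with a median of 0.23. Over all genes 54.9% had a difference above 0. With the trend removed the median of the 4 was 0.16 and all stayed above 0. The endothelin gene Edn1 had 8.02 on the Shox2-/- array and 7.69 on the wildtype array, and its difference of 0.34 was just below the threshold. With the trend removed it was just past the threshold at 0.37. Dlx5 had 7.38 on the Shox2-/- array and 7.09 on the wildtype array, a difference of 0.29. Bmp4, by contrast, differed by 0.013. The paper cites earlier work in which Shox2 knockout mice lost Bmp4 from the sinus venosus while the outflow tract kept it. A pooled value does not separate regions, so it is not read here as Bmp4 being unaffected. Dlx5 and Dlx6, the second at 7.26 on the Shox2-/- array and 7.09 on the wildtype array, lay close above the receptor level like Hand1.

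Cardiac factors that bind beside Hand2, Mef2c, Srf and Smarcd3 gave a median of 0.11 over 5 genes, with none past a threshold, and of 0.20 with the trend removed. The homeobox gene Nkx2-5 had 9.70 on the Shox2-/- array and 9.43 on the wildtype array, a difference of 0.27. Tbx20, a T-box gene of the chambers, had 10.72 on the Shox2-/- array and 10.46 on the wildtype array, a difference of 0.25. These values are close to that of Srf, while Tbx5 lay at −0.042. With the trend removed all 5 lay above 0, with Tbx5 at 0.040 and Nkx2-5 just past the threshold at 0.3515.

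Regulators of Mef2 were near 0 as deposited. The class IIa histone deacetylases Hdac4, Hdac5, Hdac7 and Hdac9 hold Mef2 proteins in a repressed state, as does Cabin1. Over these 5 genes the median was 0.0058, with Hdac7 at 8.92 on the Shox2-/- array and 8.74 on the wildtype array, a difference of 0.18, and Cabin1 at −0.12. With the trend removed this median was 0.087 and Hdac7 was at 0.26. Activators of Mef2 had a median of −0.064 over 5 genes, and of −0.023 with the trend removed. The coactivator Ep300 was at −0.12 and the kinase gene Mapk14 at −0.11, the values farthest from 0 in this list.

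Target genes of Mef2 showed 8 of 11 above 0, none past a threshold and a median of 0.11. With the trend removed the median was 0.047 and 10 of the 11 lay above 0. Creatine kinase Ckm, a muscle enzyme, had 7.80 on the Shox2-/- array and 7.50 on the wildtype array, a difference of 0.30. Smyd1, a muscle histone methyltransferase gene that Mef2c binds in the mouse heart, had 10.02 on the Shox2-/- array and 9.79 on the wildtype array, a difference of 0.22. Of 9 target genes with a promoter window, 3 held a MEF2 site, Xirp2, Jun and Klf2. Their sites are printed in capitals with their flanks, from chr2:67445918-67445947 (plus), chr4:95052236-95052265 (minus) and chr8:72318934-72318963 (plus), to set them beside the Mef2a site.
Xirp2: agctcagttcCTAAAAATAGgtgctaggtt
Jun: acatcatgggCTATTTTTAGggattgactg
Klf2: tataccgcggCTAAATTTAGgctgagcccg
The 3 genes had differences of 0.13, −0.064 and −0.012 in the order printed, with a median of −0.012, and the 6 targets without the site in their windows had a median of 0.083. Xirp2, at 6.42 on the Shox2-/- array and 6.29 on the wildtype array, was below the receptor level, and with so few genes the medians are a description only.

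Cofactors of Srf were divided as deposited. The median over 8 genes was 0.034, with 4 higher, 4 lower and none past a threshold. With the trend removed it was 0.12, with 6 of the 8 above 0. Elk4, which leads Srf to growth-response genes, had 8.94 on the Shox2-/- array and 9.14 on the wildtype array, a difference of −0.20. Myocardin (Myocd), which leads Srf to muscle genes, had 9.74 on the Shox2-/- array and 9.55 on the wildtype array, a difference of 0.18. Neither gene stood for its kind, since Elk1 (0.080) and Elk3 (0.14) were higher. The myocardin relatives were split, with Mrtfa at −0.12 and Mrtfb at 0.075. The growth-response targets of Srf were at low signal, and 6 of 7 lay above 0 with a median of 0.072. Their mean levels fell in the level bins from 6.83 to 7.91. All genes of these bins had medians of 0.11, 0.067 and −0.021, in order of rising level. With the trend removed 4 of the 7 lay above 0, with a median of 0.029. Egr2 had 7.14 on the Shox2-/- array and 6.89 on the wildtype array, a difference of 0.25, and Ier2 had 7.29 on the Shox2-/- array and 7.50 on the wildtype array, a difference of −0.21.

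The 17 cytoskeletal and muscle targets of Srf had a median of 0.028, with 11 above 0, 6 below and none past a threshold. With the trend removed the median was 0.11, with 14 above 0, 3 below and Acta1 past the threshold at 0.40. Skeletal alpha-actin (Acta1), which embryonic heart muscle also makes, had 10.62 on the Shox2-/- array and 10.30 on the wildtype array, a difference of 0.32. Smooth muscle myosin (Myh11) had 7.34 on the Shox2-/- array and 7.69 on the wildtype array, a difference of −0.34, and the smooth muscle actin Actg2 was at −0.27. Smooth muscle genes did not move together, since Tagln (0.21), Cnn1 (0.18), Smtn (0.029) and Acta2 (0.028) lay above 0. Myl9 was at −0.019. The cardiac actin gene Actc1, a strong target, was at 13.17 on both arrays with a difference of 0.0044.

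Of 14 such targets with a promoter window, 5 held a CArG box, and 1 of 4 growth-response targets did, Egr2. To set them beside the Srf boxes above, the box of 4 targets is printed with its flanks, from chr8:123894829-123894858 (Acta1, minus), chr2:114052903-114052932 (Actc1, minus), chr10:79988534-79988563 (Cnn2, plus) and chr10:67537787-67537816 (Egr2, plus).
Acta1: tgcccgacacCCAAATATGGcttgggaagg
Actc1: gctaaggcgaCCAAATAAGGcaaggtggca
Cnn2: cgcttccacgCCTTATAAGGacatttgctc
Egr2: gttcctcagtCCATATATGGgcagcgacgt
The 5 cytoskeletal targets with a box had differences from −0.030 for Vcl to 0.32 for Acta1 and a median of 0.0044, and the 9 without one in their windows had a median of 0.029. Egr2, with a box, was at 0.25. The values of targets with a box thus spanned 0, with Acta1 above the difference of Srf, Egr2 level with it and the others below it.

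Smarcd3 works within a complex, and of 24 further BAF and PBAF subunit genes 23 had a named row. None was past a threshold, 8 were higher and 15 lower, and the median was −0.059, close to that of genes of high level and at −0.00010 with the trend removed and 0.016 after a further quantile normalization. The paralogs Smarcd1 and Smarcd2, which can take the place of Smarcd3, had differences of 0.031 and −0.11. Phf10, a PBAF subunit, had 9.54 on the Shox2-/- array and 9.78 on the wildtype array, a difference of −0.24, and Actl6a, an actin-related subunit, had 10.43 on the Shox2-/- array and 10.64 on the wildtype array, a difference of −0.21.

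**Figure D4:**
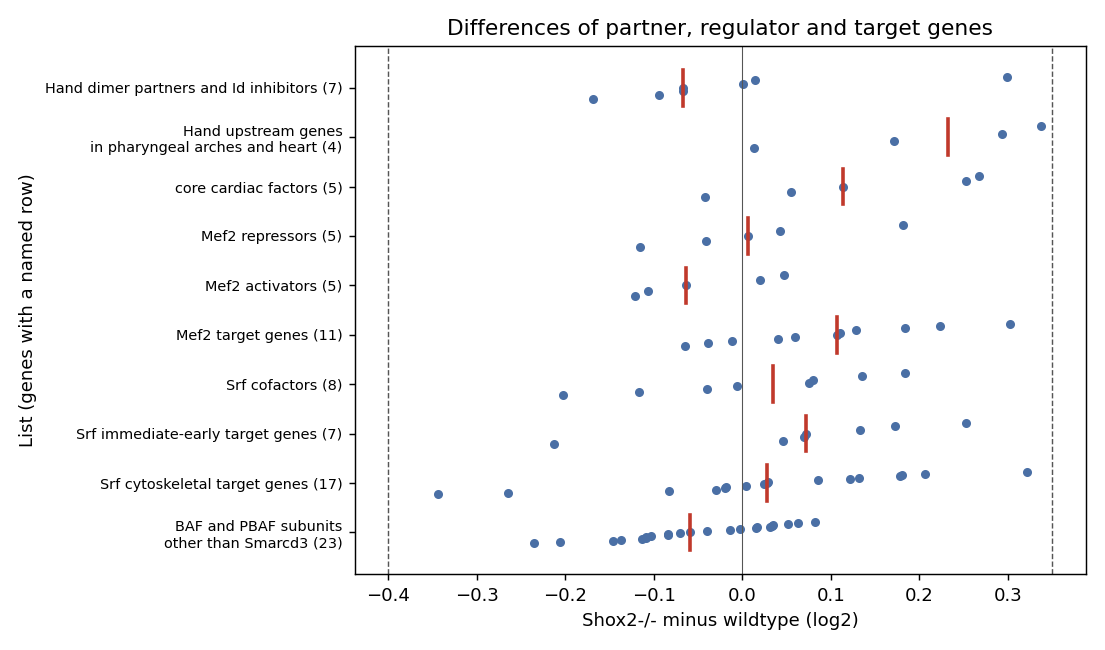
Difference between the Shox2-/- and wildtype arrays (log2, horizontal axis) of each partner, regulator and target gene (points) in 10 lists (rows, with the number of genes), and the median of each list (red bar). Dashed lines are the thresholds of 0.35 and −0.4. None of the 91 genes passes one, and over all genes 1.13% reach the upper and 1.78% the lower one.

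The tissue was checked with marker genes. All 10 heart muscle markers lay above the receptor level on both arrays, with levels from 9.58 to 13.17 on the Shox2-/- array and from 9.42 to 13.17 on the wildtype array. Their summed linear signal was 1.03 times as high on the Shox2-/- array as on the wildtype array, and 1 of the 10, Ttn at 0.43, was past a threshold. Other cell types that can make Hand1, Hand2 or Mef2c were in the pools as well. The 7 cushion mesenchyme genes were split, 4 higher and 3 lower with a median of 0.32 and a summed signal 1.01 times that of wildtype. A summed signal is weighted toward the brightest genes of a list. In this list that is Vcan, at 10.33 on the Shox2-/- array and 10.73 on the wildtype array. Prrx1 (0.80), Msx2 (0.60) and Twist1 (0.42) were past the upper threshold, and Vcan (−0.39), Sox9 (−0.27) and Postn (−0.046) lay below 0. The 7 epicardial genes had a summed signal 1.09 times that of wildtype, with Krt19 at 0.45, and the 7 endocardial genes 0.998 times, with none past a threshold.

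Of 6 outflow tract and second heart field genes, where Hand2 is strongly made, Wnt5a (0.37) was past the upper and Isl1 (−0.42) past the lower threshold, and the summed signal was 1.06 times that of wildtype. In the paper, staining of Shox2-/- hearts found Isl1 lost from the sinus node but still present in the outflow tract. The lower Isl1 value is therefore not read here as a change of the outflow tract. In the ventricular list, which bears on Hand1, Myl2 was lower by −0.70 and the other 4 genes lay from 0.046 to 0.33, with a summed signal 1.01 times that of wildtype. The neural crest and sympathetic list, where both Hand genes act, had Tfap2b (0.63) and Tfap2a (0.47) past the upper and Dbh (−0.47) past the lower threshold among 7 genes, and its summed signal was 1.07 times that of wildtype. Its levels, from 6.79 to 7.61 on the Shox2-/- array, were close to the receptor level. Receptor genes themselves had a median difference of 0.12, so this summed signal is not read as a change. Besides Dbh, the enzyme gene Th was at −0.069, and Phox2a (−0.0075) was not above the receptor level on both arrays. Skeletal muscle genes, which mark another place of Mef2c, were near background, with 2 of 5 above the receptor level on both arrays and none past a threshold.

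Lower on the Shox2-/- array were all 8 fetal liver genes, which had a summed signal 0.440 times that of wildtype, and 6 of 7 foregut and lung epithelium genes, with 0.748 times that of wildtype. Of the foregut and lung list Cldn6 (−0.71), Foxa1 (−0.64), Nkx2-1 (−0.41) and Sox2 (−0.40) were past the threshold. The part of these cell types in the differences of Hand1, Hand2, Srf and the Mef2 genes was not tested.

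**Figure D5:**
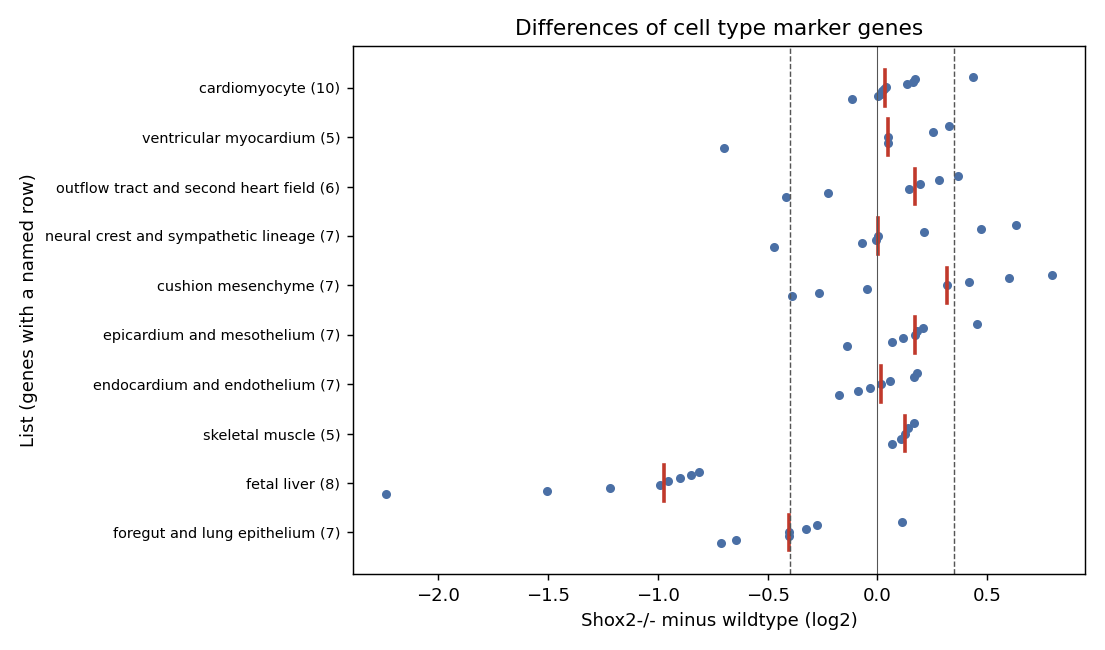
Difference between the Shox2-/- and wildtype arrays (log2, horizontal axis) of marker genes (points) of 10 cell types (rows, with the number of genes), and the median of each list (red bar). Dashed lines are the thresholds of 0.35 and −0.4, and the fetal liver markers lie below the lower one with a median of −0.97 while cushion mesenchyme has a median of 0.32.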

How the data were processed

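Total RNA of right atria was pooled per genotype by the authors and hybridized to GeneChip Mouse Gene 1.0 ST arrays. Probe values were log transformed, quantile normalized and modelled by the authors in JMP Genomics 4.0, using probe sets of a custom CDF (version 14) built on Entrez genes. The deposited values, from 5.09 to 13.59, were taken to be log2, while for background correction and genome build the source states nothing (not given in the sources used here). Of 21225 rows, 20239 had a symbol in the platform table and 986 were not named. Differences are Shox2-/- minus wildtype. Named are all 8 members, the 2 values farthest from 0 in each partner and target list, marker genes past a threshold (liver genes only counted) and Shox2. Other list members are examples chosen after their values were seen. Members and lists were chosen with earlier results of these data known.

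Alternative settings were arrays centred on their medians, a lowess trend on the mean level subtracted (span 0.3, 3 iterations, tested on simulated arrays), a second quantile normalization, only genes above the receptor level, and thresholds of 0.4 or a 2-fold change. The number of arrays limits the precision. Promoter windows and gene names came from RefSeq for GRCm38.p6. Scripts ran in Python 3.11.15 (pandas 2.3.3, numpy 2.4.6, statsmodels 0.14.6, matplotlib 3.10.9).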

Additional observations from a re-analysis of the deposited data

How the results depend on the processing

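No paired analysis was possible because each genotype had 1 array, which also left no replicate to drop. None of 72 alternative values moved by 0.1 or more on the log2 scale or changed a count of members past a threshold. This limit is wide, since the trend at the levels of the 8 members ran only from −0.085 to 0.0825. Staying within it thus says little, and Mef2d and Smarcd3 changed sign within it. The median of the 8 members ran from 0.073 with centring to 0.16 after a second quantile normalization, against 0.077 as deposited. The count of members past a threshold stayed at 0. It could not rise at 0.4 both ways or at a 2-fold change, which are no looser than the thresholds of the study. Counting only genes above the receptor level kept all 8 members, so that this setting could not change their values. Among the 91 partner and target genes, none was past a threshold as deposited and 4 were with the trend removed, Id1 (0.38), Edn1 (0.37), Nkx2-5 (0.35) and Acta1 (0.40). Signal near background limits what Hand1 and Mef2b can show.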
